A study of Mus musculus with 9 samples.

Results

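Sncaip, F5, Nrg1, Rfx3, Fam71a, Bhlhb9, Card10, Cacna1e, Mrap and Cdh17 were chosen by name from 55401 annotated genes, because earlier results on these libraries had shown them as low or unusual genes for myeloid cells that differed widely between groups of leukemic clones. The choice therefore used the levels in all 3 comparisons described here, so the levels and differences of these 10 genes are given as a description. Some are named where a call over all genes included them, which is no test of these 10. All 10 genes were found in each table. As a name, "near on-off" held for some of them and not for others. Sncaip, Rfx3, Fam71a, Bhlhb9 and Cacna1e had 3 reads or fewer in at least 1 of 9 libraries, with Fam71a there in 5 libraries, Sncaip, Rfx3 and Bhlhb9 in 3 each and Cacna1e in 1. F5, Nrg1, Card10, Mrap and Cdh17 were above 3 reads in every library, so for these genes the data show a graded level rather than an on-off one.

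The cells were H9M cells, a murine model of acute myeloid leukemia. Lineage-negative bone marrow of C57BL/6-Ly5.1 mice had been transduced with a gammaretroviral vector that coexpresses Meis1 and Hoxa9 with puromycin resistance, and both transcription factors therefore came from the vector in every library. All clones, in every group, also carried a Cas9 edit and an FGB-D lentiviral color code with fluorescent proteins and a truncated EGFR anchor. Color-coded clones were transplanted together with helper marrow into lethally irradiated C57Bl6/J mice, and stored splenocytes were later sorted as cKit+, CD11b dim or negative, CD45.1+ and EGFRt bright for total RNA sequencing. Each of the 3 groups held 3 libraries. The pre-malignant group came from mouse #15, killed early, with 1 library each of 33BC-D, 43BC-D and 38BC-D. The de novo expanded group was the same clones after outgrowth (mouse #17 gave 33BC-D, mouse #13 gave 38BC-D and mouse #14 gave 43BC-D). The stably expanded group was clone 34BC-D alone, from mice #13, #14 and #17. A difference from the pre-malignant group thus cannot be told apart from a difference between mouse #15 and the other mice, and a level seen in the stably expanded group is the level of 1 clone. The table columns give each library's group but not its clone or mouse, so libraries are numbered 1 to 3 within a group without tying a number to either.

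The 10 genes come from unrelated families. Acute myeloid leukemia driven by HOXA9 and MEIS1 keeps cells in a progenitor-like state in which genes for granule proteins such as Mpo are abundant, while neuronal, endocrine, testis or epithelial genes are usually low. Sncaip encodes synphilin, a protein of neurons, and Cacna1e a pore-forming subunit of neuronal calcium channels. Rfx3 is a winged-helix factor for ciliary genes, Fam71a belongs to a testis-enriched family that binds RAB2, and Bhlhb9 is an X-linked member of the GPRASP and ARMCX proteins. Nrg1 is a ligand of ERBB receptors, F5 is the coagulation cofactor factor V, Card10 is the CARD scaffold that joins BCL10 and MALT1 upstream of NF-kappaB, Mrap carries the corticotropin receptor to the cell surface, and Cdh17 is a cadherin best known from intestinal epithelium.

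Promoters are shown for the 3 genes among those at 3 reads or fewer in 3 or more libraries for which a promoter was at hand, since these are the genes with the sharpest steps between libraries. Each is 300 bases on the gene's own strand, 250 before and 50 after the RefSeq start, GRCm38.p6, with CpG dinucleotides in capitals. 
Fam71a (chr1:191164768-191165067, minus strand): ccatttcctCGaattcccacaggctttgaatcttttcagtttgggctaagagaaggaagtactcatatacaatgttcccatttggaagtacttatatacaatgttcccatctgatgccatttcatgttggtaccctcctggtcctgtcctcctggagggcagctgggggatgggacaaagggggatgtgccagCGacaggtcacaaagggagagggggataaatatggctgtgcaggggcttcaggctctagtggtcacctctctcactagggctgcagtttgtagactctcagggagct 
Rfx3 (chr19:28011117-28011416, minus strand): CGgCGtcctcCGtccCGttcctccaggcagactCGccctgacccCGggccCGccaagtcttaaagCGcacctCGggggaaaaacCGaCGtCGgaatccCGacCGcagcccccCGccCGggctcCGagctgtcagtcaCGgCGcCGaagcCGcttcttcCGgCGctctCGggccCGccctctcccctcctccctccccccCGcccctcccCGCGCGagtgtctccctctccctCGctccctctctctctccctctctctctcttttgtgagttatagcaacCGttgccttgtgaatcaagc 
Bhlhb9 (chrX:135885601-135885900, plus strand): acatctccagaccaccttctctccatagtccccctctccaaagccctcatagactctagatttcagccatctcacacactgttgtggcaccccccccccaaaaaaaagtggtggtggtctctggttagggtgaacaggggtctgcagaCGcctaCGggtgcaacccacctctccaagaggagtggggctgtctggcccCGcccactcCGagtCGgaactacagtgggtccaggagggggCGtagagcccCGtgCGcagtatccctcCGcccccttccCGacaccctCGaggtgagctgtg

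The Fam71a promoter held 2 CpG, the Rfx3 promoter 31 and the Bhlhb9 promoter 11, beside a median of 7 over 32841 mouse promoters of the same length. Fewer CpG than at Fam71a were present in 14.1% of these promoters, and fewer than at Rfx3 in 89.4%, so the promoters of these 2 genes were far apart in CpG content. Among 5 letter motifs searched on both strands, GGGCGG was found 3 times at Rfx3 and 2 times at Bhlhb9 (35.7% of all promoters hold it), AGGAAGT 1 time at Fam71a (9.35%) and TGACAG 1 time at Rfx3 (19.2%). TATAAA (13.6% of promoters) and TGATTNAT (3.22%) were in none of the 3 windows. The Bhlhb9 window lies inside the interval that the tables give for the gene, which starts further upstream. Promoter sequences matched 6 of the 10 genes.

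The 9 libraries held 10379739 to 15551196 reads on genes. On the CPM scale, reads scaled to a total of 1000000 on genes, the 10 genes were low. Averaged per kilobase of exon, they ranged from percentile 0.121 (Cacna1e) to percentile 41.6 (F5) of the 14040 genes with a mean of at least 10 reads. The summed level of 10 genes of the cKit+ CD11b dim gate, Mpo and Elane among them, was 9015 to 10399 CPM in the pre-malignant libraries and 11762 to 13870 CPM in the stably expanded ones, with all 10 genes present. All de novo expanded libraries lay outside these ranges, library 3 above them at 21091 CPM and libraries 1 and 2 below them at 3818 and 5273 CPM. In library 3, Mpo alone gave 15796 CPM of the sum. The genes of the sorted markers in library 3, Kit (274 CPM) and Itgam (58.2 CPM, CD11b), lay within the range of the other libraries. Without de novo expanded library 3 the number of genes called between the de novo expanded and pre-malignant groups went from 0 to 214. Between the stably and de novo expanded groups it went from 1 to 508. Because of this, the main differences that rest on the de novo expanded group are given below with and without library 3. Libraries 1 and 2 were alike in the summed myeloid genes, and leaving out library 3 keeps only these. Which of the de novo expanded libraries deviates was not tested, so values without library 3 are not taken as the better ones.

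A gene was called in a comparison when limma with a trend on log2(normalized count + 1) gave an adjusted p under 0.05 (Benjamini-Hochberg) together with a 2-fold or larger difference. Between the stably expanded and pre-malignant groups, 384 of 13968 genes tested were called (2.75%), 168 higher and 216 lower, and the libraries of the groups did not overlap for 30.7% of the genes. Of the 10 chosen genes, 9 fell under that call, 5 higher (Sncaip, F5, Card10, Mrap, Cdh17) and 4 lower (Nrg1, Rfx3, Fam71a, Cacna1e), and the same 9 did not overlap. The exception was Bhlhb9. In 1 fit of all 9 libraries only 6 genes were called in this comparison, and none was among the 10. Between the de novo expanded and pre-malignant groups limma called 0 of 14195 genes (0%), with 1597 at an unadjusted p under 0.05, 0 by edgeR and 62 by DESeq2. Libraries did not overlap there for 5 of the 10 genes (Nrg1, Fam71a, Cacna1e, Mrap, Cdh17) and for 19.1% of all genes tested. Between the stably and de novo expanded groups 1 of 13758 genes was called (0.00727%), which was none of the 10, and libraries did not overlap for Sncaip, F5 and Card10 and for 9.61% of all genes. A strict on-off pattern, with 3 reads or fewer in every library of 1 group and at least 10 in every library of the other, was met by Fam71a alone, in the stably expanded against pre-malignant comparison. It was met by 0.0716% of all genes there, 0.0211% in the de novo expanded against pre-malignant comparison and 0.0145% in the stably against de novo expanded comparison. Because the genes were picked for these differences, nothing is read from their share.

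**Figure D1:**
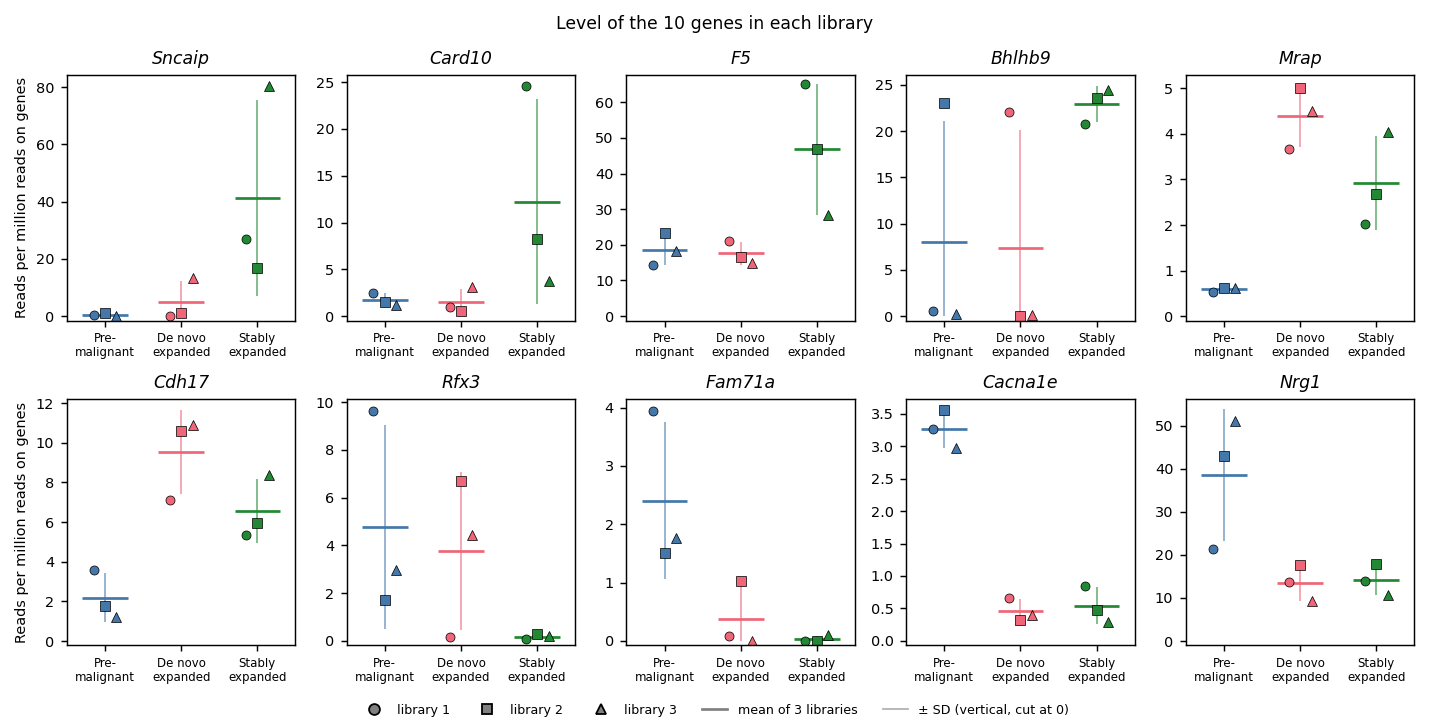
Level of each of the 10 genes in CPM (vertical axes, linear, 1 scale per gene) in the 3 libraries of each group; horizontal lines are means and vertical lines ± SD cut at 0. Sncaip, F5 and Card10 are highest in the stably expanded libraries, Cacna1e and Nrg1 in the pre-malignant libraries, and Bhlhb9 sits either near 0 or above 20 CPM.

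Gene positions are in GRCm38 as the tables give them. Sncaip (chromosome 18, 52767709 to 52915935, plus strand) had the widest difference among the 10 genes on the log2(normalized count + 1) scale. Pre-malignant libraries 1 to 3 held 3, 15 and 0 reads, de novo expanded libraries 2, 15 and 203, and stably expanded libraries 410, 244 and 834. All stably expanded libraries were therefore above every other library, and 1 de novo expanded library, number 3, lay between. The level was 41.3 ± 34.2 CPM (SD, n = 3) in the stably expanded group, 4.80 ± 7.34 CPM in the de novo expanded group and 0.418 ± 0.539 CPM in the pre-malignant group. On the log2(normalized count + 1) scale the stably expanded group was 6.84 (SE 0.86) above the pre-malignant group, and 5.85 to 7.79 above it when 1 library was left out in turn. The de novo expanded group was 2.39 (SE 1.57) above the pre-malignant group, and without its library 3 the gene was under the filter on low values. Against the de novo expanded group the difference was 4.47 (SE 1.36), and 6.06 without de novo expanded library 3, which held 92.1% of its group's level. In sorted bulk RNA, fewer cells that express a gene and less of its RNA per cell cannot be told apart. Within the stably expanded group the same clone ranged from 16.7 to 80.3 CPM between mice.

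Among 10 genes of the parkin pathway and its partners in the tables, 6 passed the filter on low values and none was called in the stably expanded against pre-malignant comparison, with 3 at an unadjusted p under 0.05, 0 called by edgeR and 0 by DESeq2. Their median log2 difference was -0.29. Park7, an oxidative stress protein, was the highest of them at 75.3 to 118 CPM in the 9 libraries.

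F5 (chromosome 1, 164151838 to 164220277, plus strand) had 190, 340 and 271 pre-malignant reads, 254, 258 and 228 de novo expanded reads and 999, 685 and 294 stably expanded reads. It was thus read in every library and was highest in the stably expanded ones, without overlap on the CPM scale (28.3 to 65.2 CPM, against 14.4 to 23.3 CPM in the other 6 libraries). The group levels were 46.8 ± 18.4, 17.6 ± 3.26 and 18.7 ± 4.44 CPM (SD, n = 3) in the stably expanded, de novo expanded and pre-malignant groups. The log2 difference was 1.27 (SE 0.27) over the pre-malignant group and 1.35 (SE 0.30) over the de novo expanded group (1.25 without de novo expanded library 3), while the de novo expanded and pre-malignant groups differed by -0.06 (SE 0.22), or 0.04 without that library. F5 was the gene with the highest level per kilobase of the 10, averaged over all libraries.

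Of 23 further coagulation factors, inhibitors and the cargo receptor of factor V, 9 passed the filter in the stably expanded against pre-malignant comparison and 1 was called. Thbd, the thrombin receptor thrombomodulin, fell from 59.2 ± 2.32 to 29.1 ± 9.48 CPM (log2 difference -1.07, SE 0.19, adjusted p = 0.0101 with limma), and its libraries did not overlap. The call was lost in 1 fit of all 9 libraries, and without stably expanded library 1, where the log2 difference was -0.87. F13a1, the transglutaminase that cross-links fibrin, was the most abundant gene of the list at 398 to 1154 CPM and was called in none of the 3 comparisons.

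Card10 (chromosome 15, 78775138 to 78803042, minus strand) had few reads outside clone 34BC-D. The pre-malignant counts were 33, 22 and 18, the de novo expanded counts 11, 9 and 47 and the stably expanded counts 377, 121 and 39. The stably expanded libraries spread over 3.76 to 24.6 CPM, and the lowest of them was close to de novo expanded library 3 at 3.07 CPM. Group levels were 12.2 ± 10.96 CPM (SD, n = 3) in the stably expanded, 1.52 ± 1.35 CPM in the de novo expanded and 1.74 ± 0.676 CPM in the pre-malignant group. The log2 difference of the stably expanded group was 2.42 (SE 0.58) over the pre-malignant group and 2.87 (SE 0.81) over the de novo expanded group, or 3.54 without de novo expanded library 3. F5 and Card10 had the same order of the stably expanded libraries, and over the 9 libraries their log2(CPM + 1) values correlated with r = 0.85, a description over libraries that share clones and mice.

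The CARD-BCL10-MALT1 genes around Card10 were read throughout, with Bcl10 at 19.5 to 35.5 CPM, Malt1 at 61.3 to 94.8 CPM and Card9, the myeloid CARD scaffold, at 143 to 208 CPM. Prkcd, a protein kinase C that acts upstream of CARD scaffolds, was the highest at 191 to 371 CPM. Of 11 genes tested in the stably expanded against pre-malignant comparison 1 was called, Prkcb, a protein kinase C of lymphocytes and myeloid cells, which rose from 76.4 ± 16.3 to 174 ± 49.7 CPM (log2 difference 1.18, SE 0.20, adjusted p = 0.00877 with limma). Without stably expanded library 1 the Prkcb difference was 0.95 and was no longer called, while DESeq2 also called its relative Prkca higher. The Prkcb call was also lost in 1 fit of all 9 libraries. Prkcb was at 24.9 and 37.2 CPM in de novo expanded libraries 1 and 2 and at 213 CPM in library 3. Within its group library 3 also stood apart in the summed myeloid genes, mostly through Mpo, and in Card10 and Sncaip.

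Bhlhb9 (chromosome X, 135797594 to 135891081, plus strand) split the libraries within groups. Before malignancy the libraries held 8, 337 and 3 reads, after de novo expansion 265, 0 and 2, and for the stably expanded clone 318, 344 and 254. Thus 5 libraries lay between 20.7 and 24.5 CPM and 4 between 0 and 0.607 CPM, with nothing between. In the pre-malignant group 96.6% of the summed level came from library 2, and in the de novo expanded group 99.4% came from library 1. Its group means of 7.96 ± 13.1 and 7.41 ± 12.7 CPM (SD, n = 3) therefore describe no library, while the stably expanded group stood at 22.9 ± 1.94 CPM. The log2 difference was 3.82 (SE 1.21) for stably expanded over pre-malignant and 5.05 (SE 1.88) for stably over de novo expanded, which came to 2.53 to 5.72 and 3.43 to 7.54 when 1 library was left out (4.17 for the latter without de novo expanded library 3). Fitted on reads, where group means weigh the high libraries more, the same differences were 1.53 and 1.64 with edgeR and 1.53 and 1.63 with DESeq2. The de novo expanded group was -1.24 (SE 2.38) from the pre-malignant group, and leaving out 1 library gave -3.74 to 0.67. Among 14040 genes with a mean of at least 10 reads Bhlhb9 was the only one with at least 30 reads in each of those 5 libraries and at most 10 in each of the other 4, with limits set after its values were seen. The cells carry Y-linked transcripts (4 genes summed to 191 to 310 CPM) and almost no Xist (at most 0.455 CPM) in all libraries.

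The relatives and neighbors of Bhlhb9 did not follow this split. Gprasp1, which overlaps it on the same strand, was read at 19.6 to 29.0 CPM in all 9 libraries. How reads in the interval shared by Bhlhb9 and Gprasp1 were assigned was not tested. Armcx5, 50272 bases away, and Armcx4, the most abundant relative at 23.2 to 61.9 CPM, were also read in every library. Armcx2 varied most among them, with 0 to 2.35 CPM in 8 libraries and 9.27 CPM in de novo expanded library 3. None of the 8 relatives tested was called in any of the 3 comparisons with limma, and 1 had an unadjusted p under 0.05, in the stably expanded against pre-malignant comparison, with 0 called by edgeR and 0 by DESeq2.

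**Figure D2:**
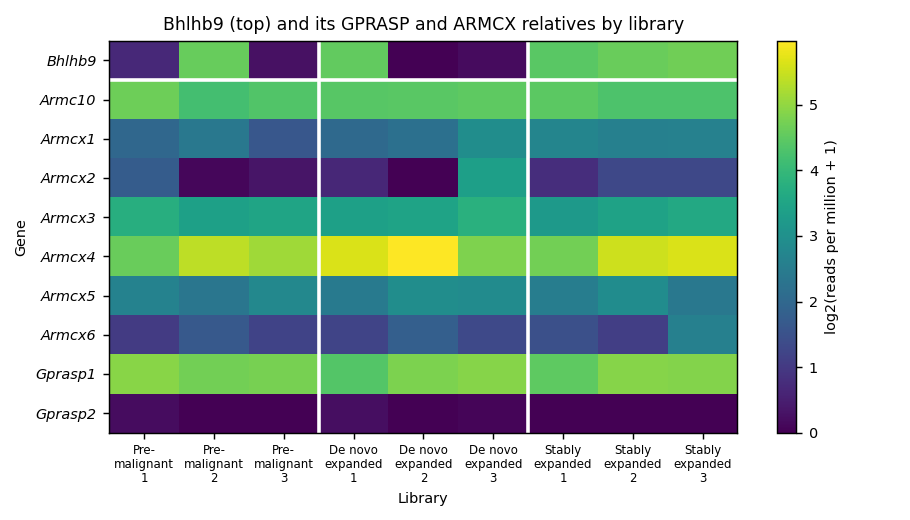
Heat map of log2(CPM + 1) of Bhlhb9 (top row) and 9 GPRASP and ARMCX relatives (rows) in the 9 libraries (columns, by group). Bhlhb9 is bright in pre-malignant library 2, de novo expanded library 1 and the 3 stably expanded libraries and dark in the other 4, while Gprasp1 stays between 19.6 and 29.0 CPM.

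Mrap (chromosome 16, 90738207 to 90749785, plus strand) was low in the pre-malignant libraries and higher in both expanded groups. Counts of 7, 9 and 9 before malignancy compared with 44, 78 and 69 after de novo expansion and 31, 39 and 42 in the stable clone, so no expanded library overlapped a pre-malignant one. The levels were 0.585 ± 0.047, 4.40 ± 0.679 and 2.91 ± 1.03 CPM (SD, n = 3) in the same order. The log2 difference from the pre-malignant group was 2.77 (SE 0.34) for the de novo expanded group (2.74 without its library 3) and 2.13 (SE 0.46) for the stably expanded group, and these 2 comparisons share the pre-malignant libraries. Between the expanded groups it was -0.62 (SE 0.34), stably over de novo expanded (-0.59 without de novo expanded library 3), with overlapping libraries. The corticotropin receptor gene Mc2r, whose protein Mrap escorts, had 1 read in 1 library and 0 in the other 8. Of 11 melanocortin and steroidogenesis genes in the tables, Star, the mitochondrial cholesterol carrier, was the highest at 0.578 to 4.57 CPM and the only one tested, and it was called in no comparison with limma (an unadjusted p under 0.05 in 2 of 3), edgeR or DESeq2.

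Cdh17 (chromosome 4, 11758147 to 11817895, plus strand) moved in the same direction as Mrap. Pre-malignant counts were 47, 26 and 18, de novo expanded counts 85, 165 and 167 and stably expanded counts 82, 87 and 87. The levels were 2.19 ± 1.23, 9.54 ± 2.12 and 6.56 ± 1.603 CPM (SD, n = 3), with every expanded library above every pre-malignant one. The log2 difference was 2.22 (SE 0.43) for the de novo expanded group (2.10 without its library 3) and 1.67 (SE 0.41) for the stably expanded group over the same pre-malignant libraries, and -0.53 (SE 0.28) between the stably and de novo expanded groups (-0.41 without that library). Mrap and Cdh17 correlated with r = 0.94 over the 9 libraries, again as a description.

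Of the other cadherins and binding partners, 6 were tested in the stably expanded against pre-malignant comparison and 1 was called. Cdh1, which encodes E-cadherin, went from 1, 3 and 8 pre-malignant reads to 19, 18 and 28 stably expanded reads, and rose from 0.274 ± 0.240 to 1.72 ± 0.844 CPM (log2 difference 2.52, SE 0.68, adjusted p = 0.0480 with limma). The call was lost with a pseudocount of 0.1 and in 1 fit of all 9 libraries. It was also lost when pre-malignant library 1 or 2, or any library of the stably expanded group, was left out. Ctnnb1, the beta-catenin that links classical cadherins to the cytoskeleton, was the most abundant at 158 to 215 CPM.

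Rfx3 (chromosome 19, 27761721 to 28011166, minus strand) was near 0 in the stably expanded clone. Its reads numbered 127, 25 and 44 before malignancy, 2, 104 and 68 after de novo expansion and 1, 4 and 2 in clone 34BC-D. De novo expanded library 1 was as low as the stably expanded libraries, while the other two de novo expanded libraries lay within the pre-malignant range. The levels were 4.77 ± 4.26, 3.77 ± 3.31 and 0.177 ± 0.105 CPM (SD, n = 3) in the pre-malignant, de novo expanded and stably expanded groups. The log2 difference of the stably expanded group was -4.00 (SE 0.70) from the pre-malignant group and -3.05 (SE 1.24) from the de novo expanded group, or -2.43 without de novo expanded library 3. The de novo expanded group itself was -0.94 (SE 1.27) from the pre-malignant group, and this ranged from -1.83 to 0.58 when 1 library was left out (0.58 without de novo expanded library 1, -1.56 without library 3) and was -0.35 with edgeR and DESeq2. As a ratio of summed reads per depth, the pre-malignant libraries held 26.5 times the stably expanded reads (95% exact counting interval 12.6 to 66.8, which covers counting error only). Rfx3 and Bhlhb9 correlated with r = -0.89 over the 9 libraries. Of 18 RFX family and ciliary genes, 12 were tested in the stably expanded against pre-malignant comparison and none was called with limma (2 at an unadjusted p under 0.05), edgeR or DESeq2, with a median log2 difference of -0.11. The most abundant of them was Rfx7, a ubiquitous RFX factor, at 154 to 203 CPM.

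Fam71a (chromosome 1, 191162584 to 191164817, minus strand) came closest to an on-off gene. The pre-malignant libraries held 52, 22 and 26 reads, the de novo expanded ones 1, 16 and 0, and the stably expanded ones 0, 0 and 1. The pre-malignant libraries were all above the rest, and de novo expanded library 2 was the only expanded library above 3 reads. The levels were 2.40 ± 1.34, 0.371 ± 0.571 and 0.0321 ± 0.0556 CPM (SD, n = 3). With only 1 read in the stably expanded group the size of the difference is uncertain, the ratio of pre-malignant to stably expanded reads per depth being 94.6 with an exact 95% counting interval from 16.6 to 3774. On the log2(normalized count + 1) scale the stably expanded group was -4.53 (SE 0.72) from the pre-malignant group, and -6.94 with a pseudocount of 0.1, so the value depends on the pseudocount. The de novo expanded group was -3.29 (SE 1.01) from the pre-malignant group and -2.45 without de novo expanded library 3. Of 8 other FAM71 family and RAB2 genes, 3 were tested in the stably expanded against pre-malignant comparison and none was called with limma (2 at an unadjusted p under 0.05), edgeR or DESeq2. Rab2a, the small GTPase that the family binds, was at 76.4 to 109 CPM in all libraries.

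The nearest expressed gene to Fam71a on the higher-coordinate side was Atf3, a stress-inducible factor of the ATF/CREB family. The near edge of the Atf3 interval (191170296 to 191218039) is 5479 bases away. Atf3 lies on the same minus strand, so this edge is its end and not its start. Its level was 36.5, 18.6 and 35.1 CPM in the pre-malignant, 9.60, 14.9 and 3.66 CPM in the de novo expanded and 1.70, 9.25 and 11.9 CPM in the stably expanded libraries. Atf3 fell in the stably expanded group (log2 difference -2.30, SE 0.59, adjusted p = 0.0381 with limma) and was not called in the de novo expanded group (-1.81, SE 0.51, adjusted p = 0.380 with limma). The Atf3 call was lost with DESeq2 (-1.99), in 1 fit of all 9 libraries (-2.30) and when any 1 of the 3 pre-malignant libraries was left out (-2.62 to -2.12). Fam71a had 5.01 to 10.8 reads per 100 Atf3 reads in the pre-malignant libraries, 6.90 in de novo expanded library 2 and 0 to 0.870 in the other 5 libraries. Of the 21 nearest expressed or overlapping genes of the 10 genes, Atf3 was the only one called in the stably expanded against pre-malignant comparison, and none was called in the other 2 comparisons with limma.

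Cacna1e (chromosome 1, 154390731 to 154884501, minus strand) was highest in the pre-malignant group, where its 3 libraries lay close together. Counts were 43, 52 and 44 (pre-malignant), 8, 5 and 6 (de novo expanded) and 13, 7 and 3 (stably expanded), without overlap between the pre-malignant and the expanded libraries. The levels were 3.27 ± 0.294, 0.460 ± 0.183 and 0.539 ± 0.284 CPM (SD, n = 3). Expanded libraries differed from the pre-malignant ones by -2.68 (SE 0.41) on the log2 scale in the de novo group (-2.62 without library 3) and by -2.54 (SE 0.48) in the stably expanded group. Cacna1e and Mrap ran opposite to each other (r = -0.97 over the 9 libraries, as a description). With an exon length of 25228 bases it was the lowest of the 10 genes per kilobase. Of 26 other calcium channel subunit genes 5 were tested in the stably expanded against pre-malignant comparison, and none was called with limma (0 at an unadjusted p under 0.05), edgeR or DESeq2. All 5 were lower, with a median log2 difference of -0.35, but 1 of them, Cacna1i, owed this mainly to 33 reads in pre-malignant library 1. In the de novo expanded against pre-malignant comparison 3 of 6 tested were higher, so no shift of the family is read from the direction. The most abundant of the list, the beta subunit gene Cacnb1, was at 1.37 to 7.97 CPM.

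Nrg1 (chromosome 8, 31814551 to 32884797, minus strand) had 283, 629 and 758 pre-malignant reads, against 164, 276 and 141 after de novo expansion and 215, 260 and 112 in the stably expanded clone. It was expressed in all libraries and higher in the pre-malignant ones, without overlap on the CPM scale (21.5 to 51.2 CPM against 9.21 to 17.8 CPM). The levels were 38.6 ± 15.4, 13.5 ± 4.27 and 14.2 ± 3.52 CPM (SD, n = 3). The log2 difference from the pre-malignant group was -1.45 (SE 0.36) for the de novo expanded group (-1.21 without library 3) and -1.37 (SE 0.29) for the stably expanded group, and the expanded groups differed by 0.10 (SE 0.29), or -0.15 without de novo expanded library 3. Among its receptors Erbb3 was read at 22.2 to 48.8 CPM, while Erbb2 and Erbb4 stayed under 1 CPM in every library. Of 10 neuregulin, ERBB and sheddase genes tested in the stably expanded against pre-malignant comparison 1 was called, Nrg4, another EGF-like ligand, which rose from 27.8 ± 8.31 to 56.1 ± 16.1 CPM (log2 difference 1.02, SE 0.24, adjusted p = 0.0287 with limma). The Nrg4 call was lost with DESeq2, where the log2 difference of 0.9975 fell just short of 2-fold, and in 1 fit of all 9 libraries. It was also lost when pre-malignant library 1 or 3, or library 2 or 3 of the stably expanded group, was left out. Bace1, a protease that cleaves neuregulin, was the most abundant at 166 to 220 CPM.

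**Figure D3:**
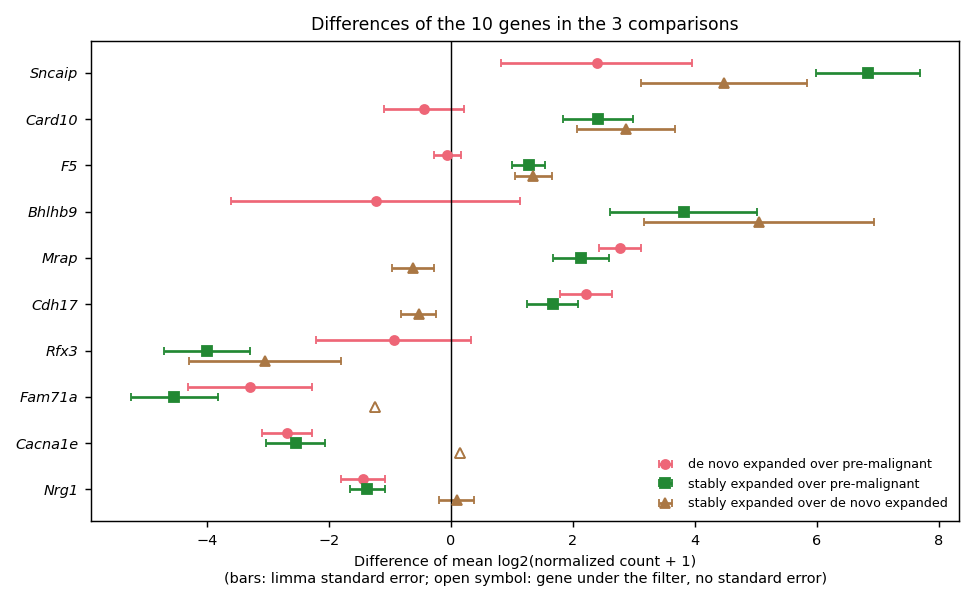
Differences of the mean log2(normalized count + 1) (horizontal axis) for the 10 genes (vertical axis) in the 3 comparisons, with limma standard errors as bars and open symbols for genes under the filter on low values. Sncaip, Card10 and F5 lie to the right in both comparisons with the stably expanded group, Mrap and Cdh17 in both comparisons with the pre-malignant group, and Cacna1e and Nrg1 to the left in the latter.

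Over all 10 lists, 4 of 71 family and pathway genes tested were called in the stably expanded against pre-malignant comparison (3 higher, 1 lower), with 23 at an unadjusted p under 0.05, beside 384 called and 3553 at that p among all 13968 genes. In the de novo expanded against pre-malignant comparison 0 of 73 were called with limma, 9 had an unadjusted p under 0.05, and edgeR called 0 and DESeq2 1. In the stably against de novo expanded comparison 0 of 67 were called with limma, 1 had an unadjusted p under 0.05 (664 of all 13758 genes did), and edgeR and DESeq2 called 0. Without de novo expanded library 3 these counts were 4 (with Cacna1f, Prkcb and Tnfaip3 among them) and 3 (Cacna1f, Prkcb, Thbd). Median log2 differences over all lists were 0.003, -0.05 and 0.02 in the 3 comparisons, beside 0.008, 0.004 and -0.002 over all genes tested.

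Genes whose levels over the 9 libraries were most like each member were found by Pearson's r of log2(CPM + 1), as a description over libraries that share clones and mice. A search among the 14040 genes with a mean of at least 10 reads, over only 9 libraries, returns high r by itself. No shared regulation is therefore read from it. The 2 closest genes of each member had r from 0.91 to 0.98. For the genes highest in the stably expanded clone these were Nme9 and Mrps21 for Sncaip, Rmi2 for F5, and Tnfsf13b and Itgb2l for Card10. Bhlhb9 was closest to Tigd5 and Gm2423, with r = 0.92 and 0.91, the lowest likeness of the 10. Mrap was closest to Snx5 and Tmed7, and Cdh17 to Ap1ar and, again, Snx5. For the genes lower in that clone, Rfx3 was closest to Gstz1 and Slc25a53, Fam71a to Gm27960 and Gm9484, Cacna1e to Stx5a and Sec16a, and Nrg1 to Trpc4ap and Gm44751.

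Markers of other cell types moved with some of these differences. Summed B cell markers were 21.3 to 29.3 CPM in the pre-malignant, 8.68 to 15.3 CPM in the de novo expanded and 13.0 to 21.7 CPM in the stably expanded libraries, with 3 of 8 tested called lower in the last group than in the first, and summed erythroid markers were 25.4 to 56.6, 3.33 to 20.6 and 4.82 to 33.3 CPM. T and NK markers stayed at or under 3.29 CPM in every library. Olfactory and vomeronasal receptor genes, which belong to sensory neurons, summed to 80.8 to 179 CPM in the pre-malignant, 37.6 to 118 CPM in the de novo expanded and 21.5 to 78.8 CPM in the stably expanded libraries, and the pre-malignant libraries held a read on 27896 to 30548 genes, against 23537 to 27989 and 21618 to 27067. These values were on the whole higher in the group where Nrg1, Fam71a and Cacna1e were higher. The pre-malignant and stably expanded groups overlapped for the B cell and erythroid sums but not for the receptor genes. The B cell overlap rested on Cd79b, which made up most of that sum in the stably expanded libraries. Cd79b ran opposite to the sum, at 9.73 to 17.8 CPM in the stably expanded and 4.66 to 10.1 CPM in the pre-malignant libraries. The pre-malignant and de novo expanded groups overlapped for the receptor genes and the number of genes with a read. The part of all these values in the differences of Nrg1, Fam71a and Cacna1e was not tested. Basophil, mast cell and eosinophil markers summed to 33.8 to 53.6 CPM in the pre-malignant and 85.4 to 120 CPM in the stably expanded libraries, with 106 CPM in de novo expanded library 3 and 16.2 and 42.6 CPM in the other two, and 2 of 5 tested were called higher in the stably expanded than in the pre-malignant group. The 4 libraries with the highest sums were those with the most Sncaip and Card10 reads per depth, and the part of these markers was not tested. Macrophage markers summed to 92.6 to 191, 62.5 to 244 and 175 to 231 CPM, megakaryocyte markers to 62.8 to 66.0, 30.9 to 68.0 and 36.3 to 55.7 CPM, and endothelial and stromal markers to 234 to 251, 100 to 245 and 89.3 to 148 CPM, in the order pre-malignant, de novo expanded, stably expanded, with Pecam1, the 1 endothelial and stromal marker tested, called lower in the stably expanded than in the pre-malignant group. Most of these sums came from a single gene or a pair of genes that myeloid cells also express (Itgb3, Pecam1, Adgre1 with Vcam1, Siglecf with Prg3). The platelet genes Ppbp and Gp1bb and the mast cell gene Mcpt4 had no read in any library, whereas Cpa3, another mast cell and basophil gene, was at 6.30 CPM in pre-malignant library 1, 9.93 CPM in de novo expanded library 3 and 2.02 to 4.91 CPM in the stably expanded libraries. In the lists, 5 of 10 B cell, 10 of 10 T and NK, 5 of 10 erythroid, 8 of 10 megakaryocyte, 7 of 10 macrophage, 5 of 10 basophil and 9 of 10 endothelial and stromal markers averaged under 1 CPM.

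**Figure D4:**
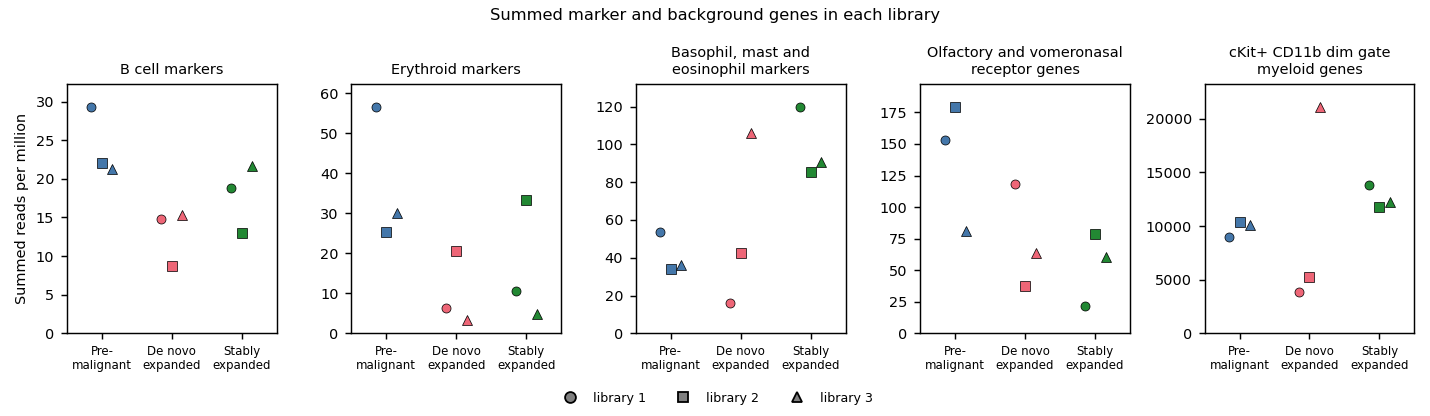
Summed CPM (vertical axes, linear from 0) of 4 marker or background gene sets and of the gate's own myeloid genes in the 3 libraries of each group. Receptor genes and B cell markers are lower in most expanded than in pre-malignant libraries. De novo expanded library 3 lies at 21091 CPM in the myeloid genes, mostly Mpo, above every other library. Libraries 1 and 2 of that group, at 3818 and 5273 CPM, lie below all libraries of the other groups.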

How the data were processed

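Total RNA of sorted splenic leukemia cells was sequenced in 9 libraries, 3 per group. The authors aligned reads with STAR 2.6.1d after Trim Galore 0.6.4, counted them with featureCounts 1.6.4 on GRCm38.p6 with GENCODE M25 genes, and deposited 1 table per pair of groups with DESeq2 normalized counts (a signal, counts divided by size factors). The authors also deposited log2 fold changes, a base mean and p-values, which were not used, and gene lengths, which were. Whole reads were recovered from the deposited signal: at least 99.995% of values per column came within 0.05 of a whole count, and the reads were the same in every table that holds a library. Totals were 10379739 to 15551196 reads, so 3 reads, the floor used here, are under 1 CPM, reads scaled to a total of 1000000 per library.

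Each comparison was tested within its own table with limma 3.58.1 (trend, two-sided) on log2(normalized count + 1), for genes with a mean of at least 10 over its 6 libraries, with Benjamini-Hochberg adjustment over all genes tested, and called under 0.05 at 2-fold or more. The log2 scale with a pseudocount of 1 understates changes of low genes. Alternatives were pseudocounts of 0.1 and 5, no filter or 50, median centring, edgeR 4.0.16 with TMM, DESeq2 1.42.0, 1 fit of 9 libraries and each library left out. On simulated counts with 4-fold changes the fit recovered 159 of 200 changed genes for stably expanded over pre-malignant (2 false calls among 13678 genes), 141 of 199 for de novo expanded over pre-malignant (7 among 13862) and 135 of 199 for stably over de novo expanded (11 among 13481). The simulated counts were drawn gene by gene, without a deviation shared by many genes. The split between library 3 and libraries 1 and 2 of the de novo expanded group is such a deviation. These rates therefore may not carry over to the comparisons with the de novo expanded group. An exact permutation test of 3 against 3 cannot go below 0.1 and was not used. P-values measure only the spread between these libraries, which share clones, mice and sorts.

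The 10 genes, the 10 lists of family and pathway genes (154 of 156 in the tables) and the 8 marker lists were chosen with earlier results of these data known. Named from the lists were genes called in any comparison and the most abundant gene of each list, with other partners of a member named after their values were seen; neighbors are the nearest genes with a mean of at least 10 reads over 9 libraries, and like genes are the 2 with the highest r. Promoters came from RefSeq (GRCm38.p6); a genome of another build was not used. The edited gene and some partner and like genes are not reported here.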

Additional observations from a re-analysis of the deposited data

How the results depend on the processing

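No paired analysis was possible because the table columns give a library's group but neither its clone nor its mouse. Of 379 values of the 10 genes under the alternatives, 368 moved by less than the spread between replicates, 11 moved further and none of the called ones changed sign. Those that moved further were mainly low genes under another pseudocount or count model. Fam71a, stably expanded over pre-malignant, was at -6.94 with a pseudocount of 0.1 and -2.69 with a pseudocount of 5. Another filter leaves a log2 difference as it was, and median centring only shifts it by a constant. The spread was each gene's own, 3.92 for Bhlhb9 in de novo expanded over pre-malignant. The counts of values that moved are therefore no measure of stability.

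The number of genes called for de novo expanded over pre-malignant went from 0 to 5 with no filter, 62 with DESeq2 and 5 with 1 fit of all 9 libraries, and was 0 to 214 with a library left out (214 without de novo expanded library 3). For stably expanded over pre-malignant it went from 384 to 6 with 1 fit of all 9 libraries, and was 206 to 452 with a library left out. For stably over de novo expanded it went from 1 to 2 with no filter, 32 with DESeq2 and 2 with 1 fit of all 9 libraries, and was 0 to 508 with a library left out (508 without de novo expanded library 3). Family and pathway genes called went from 0 to 1 with DESeq2 and 0 to 4 with a library left out (de novo expanded over pre-malignant), from 4 to 0 with 1 fit of all 9 libraries and 2 to 3 with a library left out (stably expanded over pre-malignant), and were 0 to 3 with a library left out (stably over de novo expanded). Because the 10 genes were picked for their differences in these comparisons, meeting a call gives no support to any of them. Of these, 9 met the call for stably expanded over pre-malignant with edgeR and DESeq2, and 10 with no filter. At a mean of at least 50 the count was 5, and with 1 fit of all 9 libraries 0. With a library left out 4 to 7 met the call, Rfx3 and Sncaip each time. With DESeq2, 4 met it for de novo expanded over pre-malignant (Cacna1e, Cdh17, Mrap, Nrg1) and 3 for stably over de novo expanded (Card10, F5, Rfx3). Without de novo expanded library 3, Cacna1e, Cdh17 and Mrap met it for the former and Card10, F5 and Sncaip for the latter; Mrap met it for the former in 1 fit of all 9 libraries, and Bhlhb9 for the latter without de novo expanded library 1. The 1-fit alternative lets the spread of the de novo expanded libraries enter every comparison; otherwise the cause was not tested. Levels near 3 reads, as for Fam71a and Cacna1e, are limited by depth.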
